A study of Bos taurus with 16 samples.

Results

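The genes described here are 47 that write, erase or read the chemical marks of chromatin: DNA methyltransferases and their partner UHRF1, TET dioxygenases, methyl-CpG-binding proteins, histone deacetylases, the Polycomb complexes PRC2 and PRC1, and the enzymes that add or remove methyl and acetyl groups on histones. They were chosen by gene symbol, and where a gene had more than 1 probe set on the array, the one with the highest mean over all arrays was used. Of the 47 genes, 44 were measured, out of 18444 gene symbols with a probe set of their own. HDAC3, EP300 and KAT2B had no such probe set in the annotation used and were not analysed here. RNA came from needle biopsies of the mammary gland of 16 female cattle of the breed Parda de Montaña, taken at the end of the first lactation, and each heifer gave 1 Affymetrix array. Before weaning, up to 6 months of age, 8 heifers had a starter concentrate beside their dams' milk (CON) and 8 had dams' milk alone (NOCON); all suckled for 30 min at a time. Between 6 and 15 months of age the animals of the study ate alfalfa hay with concentrate, at a forage share of 67% or 87%, and this ration is not given per heifer in the labels, so it was not compared.

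Marks on DNA and histones can be copied when cells divide, which is why they are studied as carriers of early life conditions into adult tissue. DNMT3A and DNMT3B place new methyl groups on cytosine, DNMT1 copies them after replication with the help of UHRF1, and the TET enzymes oxidise them on the way to removal. PRC2, with EZH2 or EZH1 as its enzyme, methylates histone H3, and PRC1, through its chromodomain (CBX) subunits, binds that mark and ubiquitinates histone H2A through RING1 or RNF2. In mice, EZH2 is needed for normal growth of the mammary epithelium. Whether feeding before weaning left a difference in the transcripts of this machinery is the question the comparison of CON with NOCON addresses. Values below are log2 expression as deposited, and signed differences are CON minus NOCON; levels of different probe sets are not compared with each other. A mean is followed by its SD over the 8 arrays of the group (n = 8).

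Before the comparison, the arrays themselves need a remark. In 5 of the 16 arrays (CON 2, CON 6, CON 7, NOCON 1 and NOCON 5) the median correlation with the other arrays was unusually low, by more than 5 times the scaled median absolute deviation over all arrays. It ran from 0.866 in CON 7 to 0.974 in NOCON 5, against 0.986 to 0.989 in the remaining 11. CON 7 also had the narrowest interquartile range, 1.49 against up to 2.15. The main results are therefore given with and without these 5 arrays. Arrays carry no read depth, and the number of arrays, 8 per group, limits the precision.

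No chromatin gene passed an adjusted p of 0.05 between CON and NOCON, whereas 16 of all 26773 probe sets did (0.0598%). The gene with the smallest p was CBX8, a chromodomain subunit of PRC1, followed by RING1, a ubiquitin ligase of the same complex; both had lower means in CON. These were the 2 of 44 genes with an unadjusted limma p under 0.05, a share of 4.55% against 7.93% of all named genes. Without the 5 arrays that stood apart the count was 7 of 44 (15.9%, against 8.37% of all named genes), namely CBX8, RING1, TET1, PHC1, MBD3, MBD2 and SETD2, and without CON 7 it was 5 of 44 (11.4%, against 8.52%). The share of chromatin genes was thus below that of all named genes with all arrays and above it without these arrays, and none passed the adjusted threshold without them. Of the 44 genes, 34 had a lower mean in CON (77.3%, against 51.1% of all named genes), with a median log2 difference of -0.05 (-0.0037 over all named genes). The background share was higher once dim probe sets were filtered out, with the brightest 60% kept. It was then 63.9% of the named genes left, against 78.6% of the 42 chromatin genes left. The chromatin and background shares were 86.4% and 59.6% with median centring, and 68.2% and 55.8% after quantile normalization. Without the 5 arrays that stood apart 22 of the 44 had a lower mean in CON (52.1% of all named genes), and the median was 0.0032. Leaving out CON 7 alone also gave 22 (51.3% of all named genes).

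**Figure D1:**
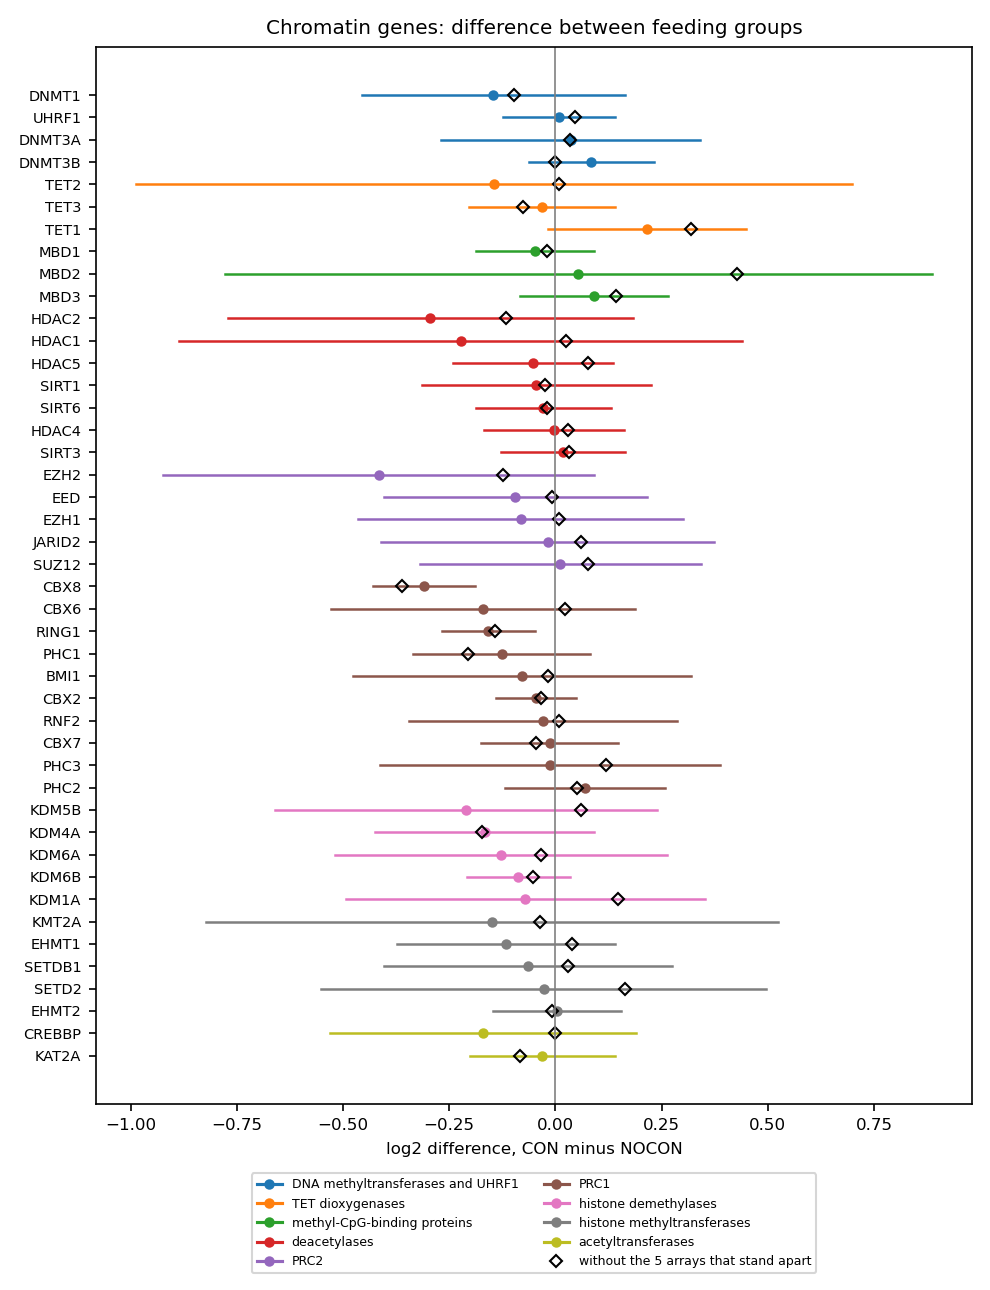
Log2 difference between the feeding groups (CON minus NOCON, x axis) for the 44 chromatin genes, coloured by role. Filled points with bars are the estimate and its unadjusted 95% interval over 16 arrays, and open diamonds are the difference of means over the 11 arrays that did not stand apart. The intervals of CBX8 and RING1 lie to the left of 0, and the diamonds fall on either side of it.

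CBX8 was between 4.70 (CON 4) and 4.98 (CON 1) in CON, with a median of 4.85, and between 4.97 (NOCON 1) and 5.34 (NOCON 6) in NOCON, with a median of 5.13. The groups overlapped only through CON 1 and NOCON 1: 7 of 8 CON arrays lay below every NOCON array. Complete separation was found for 0 of the 44 genes and for 27 of all 18444 named genes (0.146%). The mean was 4.85 ± 0.09 in CON and 5.16 ± 0.11 in NOCON (SD, n = 8), a log2 difference of -0.31 (SE 0.06, 95% interval -0.43 to -0.19), or 1.24-fold lower in CON. The limma adjusted p was 0.066, the 21st smallest p of all probe sets before adjustment, and the exact two-sided permutation p was 0.000311 (0.109 after adjustment over all probe sets). CBX8 thus missed the threshold, but its difference did not shrink without the arrays that stood apart (-0.36, adjusted p = 0.0778). It passed when NOCON 1 was left out (-0.33, adjusted p = 0.024), and the adjusted p ran from 0.00704 with array weights to 0.474 with the replicate number as a block over all alternatives.

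Neighbouring genes were looked at after these values were known. In the order of RefSeq genes of the assembly ARS-UCD2.0, CBX8 lies beside CBX2, which encodes a chromodomain protein of the same family. CBX2 averaged 3.79 ± 0.08 with starter concentrate and 3.84 ± 0.06 without (-0.05, adjusted p = 0.737), a dim level, below the array medians of 4.25 to 4.57. The genes TBC1D16, CCDC40 and RBFOX3, also within 4 places of CBX8, differed by 0.0046, 0.08 and -0.02 (adjusted p = 0.987, 0.695 and 0.934). None of these 4 genes passed the threshold.

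RING1 was between 5.06 and 5.28 in CON (median 5.20) and between 5.22 and 5.51 in NOCON (median 5.37). Of the CON arrays 5 lay below every NOCON array, and of the NOCON arrays 6 lay above every CON array. Its means were 5.20 ± 0.08 and 5.36 ± 0.10 (a log2 difference of -0.16, SE 0.05, adjusted p = 0.445), the exact permutation p was 0.00451 (two-sided, 0.255 after adjustment), and without the arrays that stood apart the difference was -0.14. RNF2, the other catalytic ubiquitin ligase of PRC1, differed by -0.03 (95% interval -0.34 to 0.29), and BMI1, which pairs with RNF2 or RING1 to activate them, by -0.08 (-0.48 to 0.32).

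The remaining PRC1 subunits were the chromodomain proteins CBX6 and CBX7 and the polyhomeotic proteins PHC1, PHC2 and PHC3, which join PRC1 units to each other. With CBX8, RING1, RNF2, BMI1 and CBX2, 9 of 10 PRC1 genes had a lower mean in CON (median -0.06); without the arrays that stood apart it was 6 of 10 (median -0.03). CBX6 differed by -0.17 (SE 0.17) with the 5 arrays and by 0.02 without them: its level was 5.65 in CON 7, the lowest array of its group, and 7.43 in NOCON 5, the highest of all. CBX7 differed by -0.01 (SE 0.08), at a mean of 4.20 over all arrays, below the lowest array median of 4.25. PHC1 differed by -0.13 (SE 0.10), and by -0.21 without the arrays that stood apart (limma adjusted p = 0.556). PHC2, the only PRC1 gene with a higher mean in CON, differed by 0.07 (SE 0.09), and PHC3 by -0.01 (SE 0.19).

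Among the 5 genes of PRC2, EZH2 had the largest difference of all 44 genes, yet also a wide spread. It ran from 5.61 (CON 7) to 7.49 (CON 8) in CON, with a median of 6.78, and from 6.47 (NOCON 1) to 7.37 (NOCON 2) in NOCON, with a median of 7.04. The 3 lowest values of all were those of CON 7, CON 6 (5.76) and CON 2 (6.22), all among the arrays that stood apart, while the highest was also a CON array. The means were 6.56 ± 0.65 and 6.98 ± 0.32 (a log2 difference of -0.42, SE 0.24, adjusted p = 0.61, exact permutation p = 0.129), and without the 5 arrays the difference was -0.12. EZH1, the alternative enzyme, differed by -0.08 (SE 0.18), and the core subunits EED and SUZ12 by -0.09 (SE 0.15) and 0.01 (SE 0.16). JARID2, which helps to bring PRC2 to its sites, differed by -0.02 (SE 0.18). Without the 5 arrays these differences were 0.0075 for EZH1, -0.0077 for EED, 0.08 for SUZ12 and 0.06 for JARID2.

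In the DNA methylation machinery, TET1 had the smallest p. It ran from 4.46 (CON 6) to 5.04 (CON 8) in CON (median 4.80) and from 4.17 (NOCON 1) to 4.84 (NOCON 2) in NOCON (median 4.58). Its mean over all arrays, 4.66, lay little above the array medians of 4.25 to 4.57. The groups overlapped widely, with 4 of 8 CON arrays above every NOCON array. The TET1 means were 4.77 ± 0.23 and 4.56 ± 0.23 (a log2 difference of 0.22, SE 0.11, adjusted p = 0.583, exact permutation p = 0.0782), and without the arrays that stood apart the difference was 0.32 (adjusted p = 0.354). TET1 was the gene with the largest positive difference among the 44.

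The other TET genes had slightly lower means in CON. TET2 had the largest SD over the 16 arrays, 0.83, and this spread lay mostly in few arrays. It lay between 5.36 (CON 7) and 7.91 (CON 8) in CON, with a median of 7.74, and between 5.47 (NOCON 1) and 8.01 (NOCON 3) in NOCON, with a median of 7.75. Both lowest arrays stood apart, and among the 11 others the SD was 0.13. The difference was -0.14 (SE 0.40, adjusted p = 0.912; 0.0086 without the 5 arrays). TET3 differed by -0.03 (SE 0.08), and its second probe set by -0.06 (SE 0.08). Over the 16 arrays the values of these probe sets correlated at 0.415. The mean of the first, 4.13, lay below the lowest array median of 4.25.

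DNMT1 averaged 5.57 ± 0.29 with starter concentrate and 5.72 ± 0.32 without (a log2 difference of -0.15, 95% interval -0.46 to 0.16). The de novo enzymes DNMT3A and DNMT3B differed by 0.04 (-0.27 to 0.34) and 0.08 (-0.06 to 0.23). DNMT3B lay below the array medians, and its highest value was 4.45 in CON 7, with 4.16 in CON 6 next. UHRF1, which recognises newly copied DNA, differed by 0.0079 (-0.12 to 0.14). Of these 4 genes 1 had a lower mean in CON, and none had an unadjusted p under 0.05.

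Among readers of methylated DNA, MBD2, which binds methylated CpG and recruits a deacetylase complex, showed a pattern that depended on the arrays. It ran from 5.06 (CON 7) to 8.62 (CON 8) in CON, with a median of 8.17, and from 7.14 (NOCON 1) to 8.04 (NOCON 6) in NOCON, with a median of 7.80. Of the CON arrays 6 lay above every NOCON array, and CON 7 lay below them all. With that array included the means were close, 7.76 ± 1.14 and 7.70 ± 0.35 (a log2 difference of 0.05, SE 0.39, adjusted p = 0.969). Without CON 7 the difference was 0.44 (adjusted p = 0.468), and without the 5 arrays that stood apart 0.43 (limma adjusted p = 0.252). MBD3, a subunit of the same kind of complex, differed by 0.09 (SE 0.08, and 0.14 without the 5 arrays), and MBD1 by -0.05 (SE 0.07). The mean of MBD3 over all arrays, 4.22, lay below the lowest array median of 4.25.

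**Figure D2:**
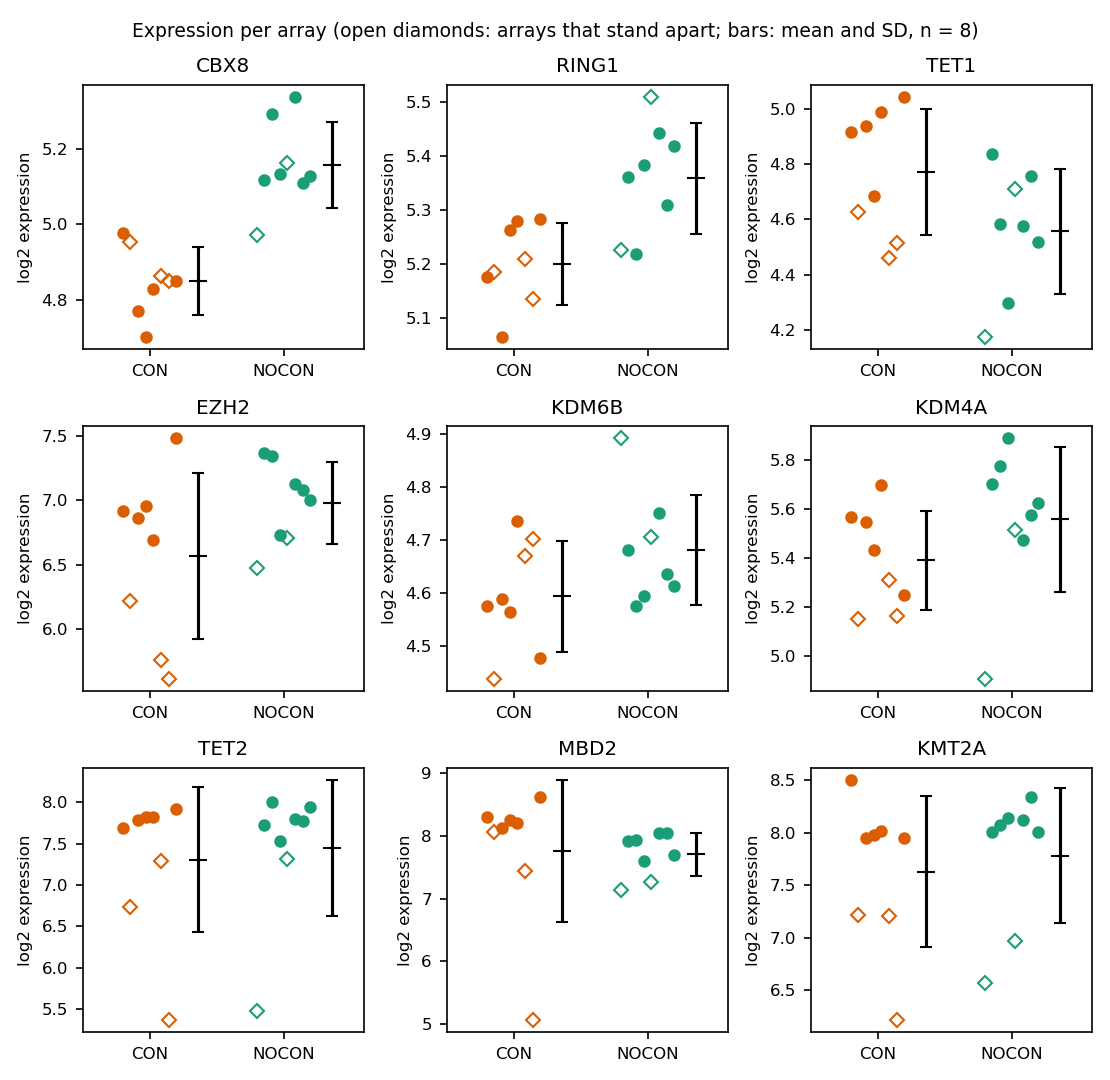
Log2 expression per array (y axis, a scale of its own per gene) in CON and NOCON for the 6 chromatin genes with the smallest p and the 3 with the largest SD over 16 arrays. Open diamonds are the 5 arrays that stood apart, filled circles the other 11, and the bars give mean and SD (n = 8). In TET2, MBD2 and KMT2A the lowest arrays are open diamonds, whereas in CBX8 the diamonds lie within or close to their own group.

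Of the deacetylases, HDAC1 and HDAC2, the catalytic subunits of several corepressor complexes, differed by -0.22 (SE 0.31) and -0.29 (SE 0.22), and by 0.03 and -0.12 without the arrays that stood apart. HDAC1 was 5.19 in CON 7 and 6.27 in NOCON 1, against 7.11 to 7.84 in the other arrays. The signal-responsive deacetylases HDAC4 and HDAC5 differed by -0.0033 (SE 0.08) and -0.05 (SE 0.09). The NAD-dependent deacylases SIRT1 and SIRT6 of the nucleus differed by -0.05 (SE 0.13) and -0.03 (SE 0.07), and SIRT3 of the mitochondrion by 0.02 (SE 0.07). In all, 6 of the 7 measured deacetylases had a lower mean in CON, and 3 of 7 without the arrays that stood apart.

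The 5 histone demethylases all had lower means in CON (median -0.13), but 3 of 5 without the arrays that stood apart (median -0.03). KDM6B, which removes the methyl mark of PRC2, ran from 4.44 (CON 2) to 4.74 (CON 5) in CON (median 4.58) and from 4.57 (NOCON 3) to 4.89 (NOCON 1) in NOCON (median 4.66). It thus overlapped between the groups, at 4.59 ± 0.10 and 4.68 ± 0.10 (a log2 difference of -0.09, SE 0.06, adjusted p = 0.63, exact permutation p = 0.117), and differed by -0.05 without the 5 arrays. KDM6A, which removes the same mark, differed by -0.13 (SE 0.18; -0.03 without the 5 arrays).

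KDM4A, a demethylase of other lysines of histone H3, ran from 5.15 (CON 2) to 5.70 (CON 5) in CON (median 5.37) and from 4.91 (NOCON 1) to 5.89 (NOCON 4) in NOCON (median 5.60). Its lowest value of all was thus in NOCON, although its mean was lower in CON, 5.39 ± 0.20 against 5.56 ± 0.30 (a log2 difference of -0.17, SE 0.12, adjusted p = 0.66, exact permutation p = 0.208). KDM5B and KDM1A, which act on a mark of active promoters and enhancers, differed by -0.21 (SE 0.21) and -0.07 (SE 0.20), and by 0.06 and 0.15 without the arrays that stood apart.

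Among the writers of histone methylation, KMT2A, which marks active promoters, had the third largest SD of the 44 genes (0.66). It lay between 6.22 (CON 7) and 8.51 (CON 1) in CON, with a median of 7.95, and between 6.57 (NOCON 1) and 8.34 (NOCON 7) in NOCON, with a median of 8.04. All 5 arrays that stood apart lay below all others, at 6.22 to 7.22 against 7.95 to 8.51. The difference was -0.15 (SE 0.32, adjusted p = 0.881), and -0.04 without them.

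SETD2, which methylates histones along transcribed genes, differed by -0.03 (SE 0.25), and by 0.16 without the 5 arrays (limma adjusted p = 0.478). The repressive methyltransferases EHMT1, EHMT2 and SETDB1 differed by -0.12 (SE 0.12), 0.0038 (SE 0.07) and -0.06 (SE 0.16), and by 0.04, -0.0083 and 0.03 without the 5 arrays. The acetyltransferases CREBBP and KAT2A differed by -0.17 (SE 0.17) and -0.03 (SE 0.08), and by -0.0015 and -0.08 without the 5 arrays. None of these 6 genes passed, and their adjusted p ran from 0.739 to 0.987.

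Most of the spread of the chromatin genes over the arrays lay in the 5 arrays that stood apart. The median SD of the 44 genes was 0.276 over all arrays and 0.142 over the other 11, against 0.205 and 0.122 for all named genes. Of the 44 genes, 17 were lower by more than 0.5 in the mean of the 5 arrays than in the mean of the others (38.6%, against 14.1% of all named genes), and 0 were higher by as much (2.08% of all named genes). The lowest shifts were those of TET2 (-1.36), KMT2A (-1.26), MBD2 (-1.07), SETD2 (-0.98) and EZH2 (-0.90). Other genes were close to the same level in both sets, among them CBX8 (-0.06), RING1 (-0.04), CBX2 (0.02), KAT2A (-0.0012), EHMT2 (0.02) and HDAC5 (0.03). CON 7 held the lowest value of 18 of the 44 genes (40.9%, against 25.4% of all named genes) and NOCON 1 that of 9 (20.5%, against 10.01%). The named genes were not matched to the chromatin genes in level, and whether these shifts go with level was not tested. The interquartile range was 1.49 to 1.74 in CON 2, CON 6, CON 7 and NOCON 1, and 1.96 to 2.15 in all other arrays. These shares therefore do not single out chromatin genes.

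**Figure D3:**
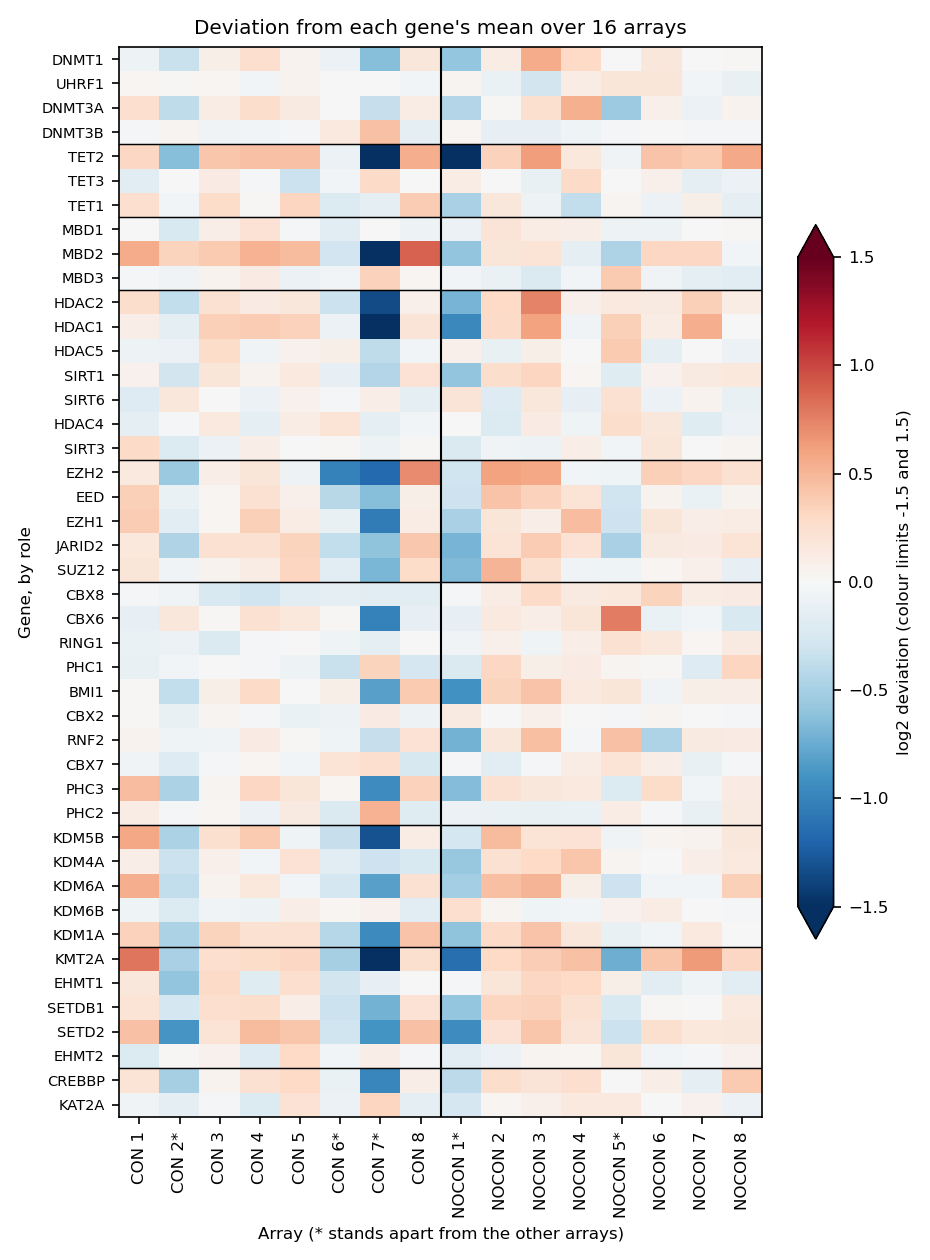
Deviation of each chromatin gene (rows, grouped by role) from its own mean over the 16 arrays (columns), on the log2 scale; blue is below and red above the mean, and the colour scale is limited at both ends. Arrays marked with an asterisk stood apart from the others. The columns of CON 7 and NOCON 1 are mostly blue, and the row of CBX8 is pale blue in every CON array and pale red in every NOCON array but NOCON 1.

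Markers of the tissue also stood out in some of the same arrays, and their part in these values was not tested. The mean level of the luminal markers lay above the array median on every array of this mammary tissue. All 10 of 10 luminal epithelial markers had lower means in CON, as did 51.1% of all named genes and 63.9% of those left by the filter on dim probe sets. Their mean level per array ran from 6.26 to 6.87 in CON and from 6.77 to 7.11 in NOCON. The lowest value was in CON 7 and the highest in NOCON 5, both arrays that stood apart. In the arrays that did not stand apart it ran from 6.77 to 6.98. Over 16 arrays the exact two-sided permutation p for the mean level was 0.0246, or 0.221 after adjustment over the 9 marker lists. This test was not repeated without the arrays that stood apart. Endothelial markers (5 of 5 measured) ran from 5.24 to 7.51 in CON and from 5.76 to 7.41 in NOCON, again lowest in CON 7, as were the myoepithelial and smooth muscle markers (6.89). CON 7 was the highest of all arrays for markers of adipocytes (5.56), B and plasma cells (4.90) and proliferation (4.39), and the highest CON array for those of T and NK cells (4.60). Its array median was also the highest of all, 4.57 against 4.25 to 4.34 in the other arrays. In CON 7 the proliferation level lay below that median and the T and NK level close to it. Markers of proliferation, macrophages, lymphocytes (T and NK cells in 1 list, B and plasma cells in another), myoepithelium, fibroblasts and adipocytes overlapped between the groups, with exact p from 0.172 to 0.913. No marker of any list passed the adjusted threshold. In a biopsy, fewer cells of a type and less RNA per cell cannot be told apart.

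Partner genes were also compared over arrays, with 19 relations named by known partnership. Over 16 arrays 10 of the 19 passed an adjusted permutation p of 0.05 for Pearson's r and 8 for Spearman's rho. The share of other gene pairs that would pass was not computed, so the count does not single out partners. The highest was that of HDAC1 with HDAC2 (r = 0.946, rho = 0.829, adjusted permutation p = 0.00019 and 0.000823), followed by RNF2 with BMI1 (r = 0.817, rho = 0.862, adjusted p = 0.00201 and 0.000823) and EED with SUZ12 (r = 0.817, rho = 0.821, adjusted p = 0.000855 and 0.000823). EZH2 followed EED (r = 0.807, rho = 0.691, adjusted permutation p = 0.0012 and 0.0158), JARID2 (r = 0.781, rho = 0.609, adjusted p = 0.00201 and 0.0374) and SUZ12 (r = 0.730, rho = 0.691, adjusted p = 0.0089 and 0.0158). EZH1 and EZH2, alternative enzymes of PRC2, went together as well (r = 0.682, rho = 0.582, adjusted permutation p = 0.0122 and 0.0465).

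Only the relations of HDAC1 with HDAC2 and of RNF2 with BMI1 still passed over the 11 arrays that did not stand apart (r = 0.721, adjusted permutation p = 0.0436, and r = 0.770, adjusted p = 0.0192). Without the 2 arrays farthest from the median of the first gene they gave r = 0.809 (CON 7 and NOCON 1 left out) and r = 0.791 (NOCON 1 and NOCON 6 left out). Without such 2 arrays, here CON 6 and CON 7, EZH2 gave r = 0.585 with EED, 0.726 with JARID2 and 0.621 with SUZ12, and EED gave 0.732 with SUZ12. Without CON 7 and NOCON 1, EZH1 gave 0.417 with EZH2. Others of the 5 arrays that stood apart stayed in each of these sets. The pairs within PRC2 gave r from 0.246 to 0.5262 over the 11 arrays (adjusted p from 0.434 to 0.582), and EZH1 with EZH2 turned to -0.355 (adjusted p = 0.493), so none of these calls held over the 11 arrays. The deposited values still differed between arrays in median (4.25 to 4.57) and interquartile range (1.49 to 2.15). After quantile normalization of these values HDAC1 with HDAC2 was the only relation that passed, and RNF2 with BMI1 gave r = 0.574 (adjusted permutation p = 0.0582). PHC1 with PHC2 passed over 16 arrays by r alone (r = 0.571, rho = 0.506, adjusted permutation p = 0.0344 and 0.0838) and gave r = 0.201 over the 11 and 0.247 without the 2 farthest arrays.

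DNMT3A and DNMT3B went in opposite directions by rho but not by r (r = -0.462, rho = -0.650, adjusted permutation p = 0.115 and 0.0244), and gave r = -0.066 over the 11 arrays and -0.603 without the 2 farthest. Several other partners passed by neither measure. DNMT1 and UHRF1 had r = -0.277 and rho = -0.212 (adjusted permutation p = 0.402 and 0.483), TET2 and TET3 r = -0.538 and rho = -0.459 (adjusted p = 0.0579 and 0.111), and KDM6A and KDM6B r = -0.403 and rho = -0.459 (adjusted p = 0.179 and 0.111). RING1 with RNF2, CBX7 with CBX8, CBX2 with CBX8, and EHMT1 with EHMT2 had r from 0.064 to 0.247 (adjusted permutation p from 0.453 to 0.812).

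EZH2, DNMT1 and UHRF1 are known to be high in dividing cells, so they were set against the mean level of 14 proliferation markers. EZH2 had r = -0.674 and rho = -0.524 (adjusted permutation p = 0.0184 and 0.0792), DNMT1 r = -0.606 and rho = -0.518 (adjusted p = 0.0327 and 0.0792) and UHRF1 r = 0.140 and rho = 0.194 (adjusted p = 0.612 and 0.491). Without the 2 arrays farthest from the median of the gene, the r was -0.708 for EZH2 and -0.571 for DNMT1. Over the 11 arrays the r of EZH2 was -0.546 and that of DNMT1 -0.143, and neither passed (adjusted permutation p = 0.434 and 0.748). Subtraction of each array's median turned both signs, to 0.155 and 0.239. The marker level itself was low and narrow, between 4.15 and 4.39 on all arrays, with the highest value in CON 7. That array also had the highest array median, 4.57.

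**Figure D4:**
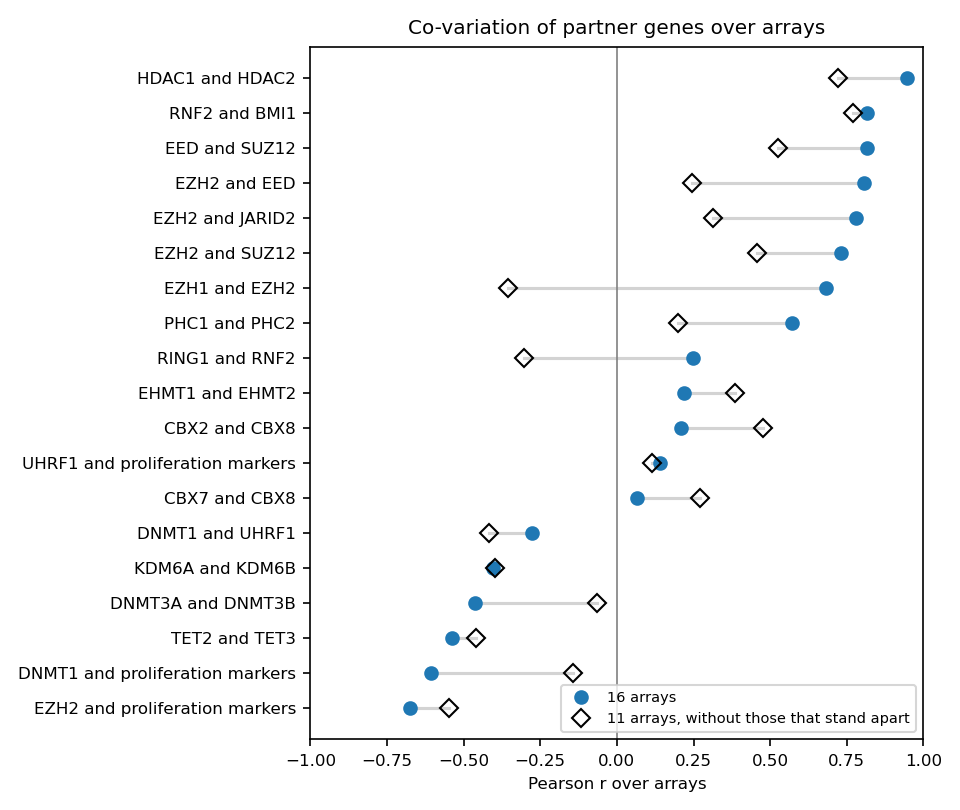
Pearson r over arrays (x axis) for the 19 relations between partner genes or between a gene and the mean of the proliferation markers (rows). Blue points are r over 16 arrays, open diamonds r over the 11 arrays that did not stand apart. HDAC1 with HDAC2 (0.946 and 0.721) and RNF2 with BMI1 (0.817 and 0.770) stay high in both. The pairs within PRC2 have lower r over the 11 arrays, and EZH1 with EZH2 changes sign.

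Over all 946 pairs of the 44 genes, the median r was 0.201 over 16 arrays and 0.0577 over the 11, with 31.5% and 8.67% of pairs above 0.5. Over all pairs of named genes the median was 0.001 in both sets of arrays, with 19.3% and 8.05% of pairs above 0.5. These pairs share arrays and genes, and the figures describe them without a test.

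A wider list of 116 chromatin genes that are partners or relatives of the 44, of which 110 were measured, gave a similar picture. None passed the adjusted threshold, and 9 had an unadjusted limma p under 0.05 (8.18%, against 7.93% of all named genes). All 9 had lower means in CON, as did 973 of the 1462 named genes with such a p. In all, 78 of the 110 had a lower mean in CON (70.9%, against 51.1% of all named genes), with a median of -0.07. With dim probe sets filtered out these shares were 74% and 63.9%. Without the arrays that stood apart it was 53 of 110 (48.2%, against 52.1%), with a median of 0.01. The 3 with the smallest p and lower means were SIRT7, a nucleolar deacylase (4.65 ± 0.06 against 4.83 ± 0.11; log2 difference -0.19, adjusted p = 0.359), PRMT1, the main arginine methyltransferase (7.54 ± 0.49 against 8.11 ± 0.32; -0.58, adjusted p = 0.481), and RCOR1, a partner of KDM1A (5.29 ± 0.31 against 5.63 ± 0.15; -0.34, adjusted p = 0.484). Without the arrays that stood apart these differences were -0.19, -0.15 and -0.19. Of those with higher means, PCGF5, a relative of BMI1 in variant PRC1, differed by 0.32 (adjusted p = 0.583; 0.40 without the 5 arrays), SUV39H2, a repressive methyltransferase, by 0.09 (adjusted p = 0.591; 0.03 without the 5 arrays) at a level below the array medians, and HDAC6, a cytoplasmic deacetylase, by 0.09 (adjusted p = 0.648; 0.12 without the 5 arrays).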

How the data were processed

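RNA of 16 heifers was measured on 1 Affymetrix array each. The deposited values are on a log2 scale, with RMA and GCOS named in the submitters' processing notes; the log base is not stated and was read as log2 from the range of 2.73 to 12.7. RMA corrects background, normalizes between arrays and summarises probes. The sources used here give neither chip definition nor genome build, detection was not assessed, and no sequences or coordinates are printed. The array annotation gave 1 symbol to 18790 of 26773 probe sets, several to 385 and none to 7598. For 42 of the 44 measured genes its gene ID equalled that of RefSeq.

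CON was compared with NOCON by limma 3.58.1 in R 4.3.3 (lmFit, eBayes) with no covariate, p-values being adjusted by the Benjamini-Hochberg method across the 26773 probe sets, and by exact permutation over 12870 regroupings. Correlations used 100000 permutations. The scripts were tested on simulated data. Group labels came from the sample titles; heifers are the replicates, and biopsy and array variation cannot be separated from theirs. The genes and lists were chosen with earlier results of these data known. Values are shown per array for the 6 genes with the smallest p and the 3 with the largest SD, and of the wider list the 3 with the smallest p per direction are named; HDAC1, CBX6 and DNMT3B arrays were picked after their values were seen. Alternatives were a filter on dim probe sets, other eBayes settings, array weights, median centring, quantile normalization, the replicate block, the first principal component, other choices of probe set, an adjusted p of 0.10, and arrays left out.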

Additional observations from a re-analysis of the deposited data

Results flagged for a closer look

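In 16 of 100 groups of 8 arrays (50 genes: the 44 chromatin genes and 6 of the wider list), the highest or lowest array lay apart from the rest of its group, its gap to the nearest array divided by the group's range being above Dixon's 95% critical value for 8 values. Chance flags about 1 in 20 groups, but genes measured on the same arrays are not independent. The share of flagged groups over all named genes was not computed, so the count does not single out chromatin genes. All 16 values lay in arrays that stood apart over all probe sets, 6 in CON 7 and 6 in NOCON 1. In CON 7 the lowest of the group were HDAC2 (log2 value 4.15), CBX6 (5.65), HDAC1 (5.19), EZH1 (5.62), TET2 (5.36) and MBD2 (5.06). In NOCON 1 the lowest were KDM4A (4.91), HDAC2 (4.80), HDAC1 (6.27), BMI1 (4.80), TET2 (5.47) and PCGF5 (4.68). In NOCON 5 the highest of the group were MBD3 (4.61), CBX6 (7.43), HDAC5 (6.49) and PRMT1 (8.82).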

How the results depend on the processing

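CBX8 kept a lower mean in CON in all 28 alternatives, and 13 of the 44 genes kept their sign in all of them, while 31 changed sign in at least 1. Some alternatives could not change a sign, since they left the log2 differences as they were. Among them were the filter, other eBayes settings, the replicate block, the exact test, 1 probe set per gene and the adjusted p of 0.10. The 16 probe sets past the threshold became 67 with array weights, 44 with the first principal component as covariate, 35 at an adjusted p of 0.10, 2 with 1 probe set per gene, 2 with the mean of a gene's probe sets and 0 by the exact test. With the replicate block 4 passed. Same-numbered arrays correlated from -0.427 to 0.292, with 2 of 8 pairs over 0.1. The pairs of replicates 1 (-0.427) and 7 (-0.362) each include an array that stood apart. These correlations therefore cannot decide whether the numbers pair the heifers. The chromatin genes past the threshold became 1 (CBX8) with array weights, the principal component and an adjusted p of 0.10, and 0 to 1 with 1 array left out (1 without NOCON 1).

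Chromatin genes with an unadjusted p under 0.05 numbered 4 with array weights (9.09%, against 11.7% of all named genes), 4 with the principal component (9.09%, against 13.8%) and 7 without the arrays that stood apart (15.9%, against 8.37%). With 1 array left out they numbered 2 to 5 (4.55% to 11.4%, against 5.76% to 9.58% of all named genes). Those with a lower mean in CON numbered 18, 18 and 22 under the same settings. These were 40.9%, 40.9% and 50%, against 51.3%, 49% and 52.1% of all named genes. With 1 array left out they numbered 22 to 39 (50% to 88.6%, against 48.9% to 52.5%). In the wider list 15 had an unadjusted p under 0.05 with array weights and 15 with the principal component (13.6% in both, against 11.7% and 13.8% of all named genes). With 1 array left out it was 6 to 11 (5.45% to 10%, against 5.76% to 9.58%). A lower mean with the principal component was found for 48 of the wider list (43.6%, against 49%). With 1 array left out it was 62 to 85 (56.4% to 77.3%, against 48.9% to 52.5%). Relations past the threshold numbered 1 after quantile normalization, 2 without the arrays that stood apart, 5 without the 2 farthest arrays and 5 to 11 with 1 array left out. The causes were not tested.

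With array weights the log2 differences that changed sign were KDM5B 0.065, EHMT1 0.024, MBD1 0.0019, HDAC1 0.026, KDM6A 0.024, EED 0.042, HDAC5 0.048, EZH1 0.022, BMI1 0.012, SETDB1 0.060, TET2 0.019, KDM1A 0.14, RNF2 0.021, SETD2 0.15, JARID2 0.070, PHC3 0.12, EHMT2 -0.031, HDAC4 0.022. With median centring the log2 differences that changed sign were SIRT3 -0.0079, UHRF1 -0.017, SUZ12 -0.013, EHMT2 -0.021. With median centring the Pearson r that changed sign were DNMT1 with UHRF1 0.20, KDM6A with KDM6B 0.082, DNMT1 with proliferation markers 0.24, EZH2 with proliferation markers 0.16. After quantile normalization the log2 differences that changed sign were HDAC5 0.0032, KAT2A 0.018, RNF2 0.033, UHRF1 -0.019, SETD2 0.051, JARID2 0.032, SUZ12 -0.0061, PHC3 0.096. After quantile normalization the Pearson r that changed sign were RING1 with RNF2 -0.063, DNMT1 with UHRF1 0.18, DNMT3A with DNMT3B 0.29. With the first principal component the log2 differences that changed sign were KDM5B 0.0020, HDAC1 0.11, KDM6A 0.039, EED 0.034, KMT2A 0.16, EZH1 0.095, BMI1 0.096, SETDB1 0.092, TET2 0.26, KDM1A 0.14, SIRT1 0.071, RNF2 0.063, SETD2 0.21, JARID2 0.15, PHC3 0.18, HDAC4 0.0058. Without the arrays that stood apart the log2 differences that changed sign were DNMT3B -0.00075, CBX6 0.022, KDM5B 0.059, EHMT1 0.040, HDAC1 0.026, HDAC5 0.078, EZH1 0.0075, SETDB1 0.028, TET2 0.0086, KDM1A 0.15, RNF2 0.0072, SETD2 0.16, JARID2 0.060, PHC3 0.12, EHMT2 -0.0083, HDAC4 0.029. Without the arrays that stood apart the Pearson r that changed sign were EZH1 with EZH2 -0.36, RING1 with RNF2 -0.30. With group means subtracted the Pearson r that changed sign were CBX2 with CBX8 -0.14. With 1 array left out, the ranges of those that changed sign were SIRT3 -0.023 to 0.047, MBD2 -0.069 to 0.44, SUZ12 -0.082 to 0.11, HDAC4 -0.033 to 0.033, CBX7 -0.051 to 0.019, SETD2 -0.17 to 0.098, JARID2 -0.12 to 0.066, PHC3 -0.11 to 0.12, EHMT2 -0.038 to 0.033, TET3 -0.074 to 0.013, HDAC1 -0.38 to 0.053, KMT2A -0.32 to 0.052, EZH1 -0.16 to 0.062, BMI1 -0.21 to 0.032, SETDB1 -0.15 to 0.033, TET2 -0.43 to 0.13, KDM1A -0.16 to 0.060, SIRT1 -0.13 to 0.015, RNF2 -0.13 to 0.033, DNMT3A -0.039 to 0.11, UHRF1 -0.032 to 0.034, HDAC5 -0.096 to 0.00037, SIRT6 -0.059 to 0.0014, CBX7 with CBX8 -0.037 to 0.19, DNMT1 with UHRF1 -0.38 to 0.067.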
